A study of Sus scrofa with 2 samples.

Results

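The calsarcin genes *MYOZ1* and *MYOZ2* and the LIM-domain genes *FHL1* and *CSRP2* were described in the *longissimus dorsi* muscle (LM) of Shaziling and Yorkshire pigs. They were chosen by name. A unigene (an assembled transcript sequence) was assigned to a gene when the protein it matched in the NCBI nr database was a RefSeq protein of that pig gene. All 4 genes were found, on 5 of the 65535 unigenes of the deposited table, and *FHL1* was the gene with 2 unigenes. The authors report more assembled unigenes than this table holds. Ranks, shares and genes not found therefore refer to the unigenes of the table. Levels are given in RPKM, which relates the reads of a unigene to its length in kb and to the depth of the library. The unigene with the higher mean RPKM represents *FHL1*.

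The LM came from 3 male Shaziling pigs, an indigenous Chinese breed, and from 3 male Yorkshire pigs, a lean breed that grows rapidly. The pigs of each breed were full-sibs aged 25 days and no treatment was compared, so breed and litter cannot be told apart. For each breed the table has 1 column of reads, whose name lists the 3 pigs, and it is treated as 1 library, so no difference below has a replicate check. Sample titles and column names give the breeds used here, whereas a further field of the sample record gives the breed classes the other way round. The library totals were 33949238 reads for Yorkshire and 28305925 for Shaziling. Of 8 skeletal muscle markers 7 were found. Those with over 100 RPKM in both libraries were *MYLPF*, *MYH1*, *MYH4* and *DES*, while fragments of *TTN* (20.5 RPKM in Yorkshire and 5.88 in Shaziling), *MYH7* and *ACTA1* were below 100 RPKM in 1 or both libraries.

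The Z-disc is the plate at the end of each sarcomere where the thin filaments of neighbouring sarcomeres are tied together by alpha-actinin. Calsarcins (myozenins) are Z-disc proteins that bind alpha-actinin, filamin C and telethonin, and tether calcineurin, a phosphatase that promotes the slow fibre programme. MYOZ1 is a calsarcin of fast fibres, and MYOZ2 is that of slow fibres and the heart. LIM domains are zinc-binding modules through which proteins bind one another. FHL1 consists of such domains and is abundant in skeletal muscle, and CSRP2 is a LIM protein best known from smooth muscle.

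The fast and slow calsarcins differed in opposite directions between the libraries. *MYOZ1* was higher in Shaziling, with 348 RPKM in Yorkshire and 1524 in Shaziling. *MYOZ2* was higher in Yorkshire, with 413 RPKM there and 135 in Shaziling. *FHL1* was higher in Shaziling, with 244 and 504 RPKM, respectively. *CSRP2* was at a low level in both, with 2.26 RPKM in Yorkshire and 3.83 in Shaziling. In all, 3 of the 4 genes were past a ratio of 2 between the libraries, of which *MYOZ1* and *FHL1* were higher in Shaziling and *MYOZ2* in Yorkshire. Under 4 other scalings of the libraries *FHL1* was below this ratio (1.26 to 1.62), which leaves 2 of the 4.

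These directions were read against those of the other unigenes. Of the 37352 unigenes that reached 1 RPKM in either library, 39.6% were past the ratio of 2 with the higher level in Shaziling, and 15.3% with the higher level in Yorkshire. Among the 304 abundant unigenes (a mean of 100 RPKM or more), to which *MYOZ1*, *MYOZ2* and *FHL1* belong, these shares were 42.4% and 3.95%. Over all unigenes the more frequent direction turned with the scaling, to 10856 unigenes higher in Shaziling and 17227 in Yorkshire with totals without the mitochondrial unigenes. Among the 304 abundant unigenes, the direction of *MYOZ1* was the more frequent one and that of *MYOZ2* the less frequent one under each of the 4 other scalings too, with shares of 24.7% and 15.5% at the closest.

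**Figure D1:**
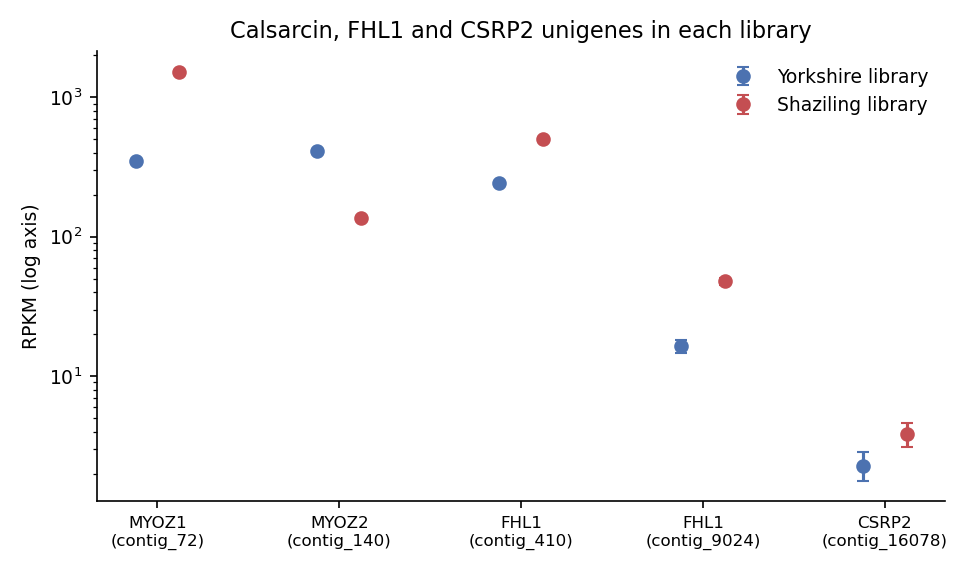
RPKM (log axis) of the 5 unigenes of *MYOZ1*, *MYOZ2*, *FHL1* and *CSRP2* in the Yorkshire (blue) and Shaziling (red) libraries, with exact 95% Poisson intervals on the reads that cover counting error only and are mostly smaller than the points. *MYOZ2* is the gene whose Yorkshire point (413) lies above its Shaziling point (135).

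The fast calsarcin *MYOZ1* was represented by contig_72, with a length of 1955 bp. The matched protein has 298 residues, so that its coding sequence would take 45.9% of the unigene. In Yorkshire 23110 reads were counted on it, and in Shaziling 84328. Shaziling exceeded Yorkshire in RPKM by a ratio of 4.38, and its exact (Clopper-Pearson) 95% confidence interval on the reads was 4.31 to 4.44. This and all further intervals cover counting error only. The log2 fold change, computed from RPKM values with 1 added, was 2.13. The median was 0.51 over the genes named by the nr match and 0.76 over the abundant unigenes. *MYOZ1* was at rank 59 among all unigenes by RPKM in Yorkshire and at rank 22 in Shaziling.

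The slow calsarcin *MYOZ2* was represented by contig_140 (1412 bp), of which the coding sequence of the matched protein of 264 residues would take 56.3%. Its reads numbered 19800 in Yorkshire and 5404 in Shaziling. *MYOZ2* was 3.05 times higher in Yorkshire (95% confidence interval 2.96 to 3.15), and the log2 fold change of Shaziling against Yorkshire was -1.60. By RPKM it was at rank 47 among all unigenes in Yorkshire and at rank 268 in Shaziling. A total of 74 other genes named by the nr match had a mean of 100 RPKM or more, and of these 0 had a lower ratio of Shaziling to Yorkshire than *MYOZ2*. In this set, 1 gene was past the ratio of 2 in favor of Yorkshire and 28 in favor of Shaziling.

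The ratio of one calsarcin to the other within a library does not depend on how the libraries are scaled. *MYOZ1* had 0.843 times the RPKM of *MYOZ2* in Yorkshire and 11.3 times in Shaziling. The ratio of *MYOZ1* to *MYOZ2* was therefore 13.4 times higher in Shaziling, with an exact conditional 95% confidence interval of 12.9 to 13.8. In LM as a whole, fewer fibres of a type and less RNA per fibre cannot be told apart.

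*MYOZ3*, the other calsarcin (contig_4863, 1599 bp), had 3205 reads in Yorkshire and 4770 in Shaziling, or 59.0 and 105 RPKM. Its ratio of 1.79 (95% confidence interval 1.71 to 1.87) lay between those of *MYOZ2* and *MYOZ1*. Summed over the 3 calsarcins, the level was 820 RPKM in Yorkshire and 1764 in Shaziling, which is 2.15 times higher in Shaziling. *MYOZ1* made up 42.4% of this sum in Yorkshire and 86.4% in Shaziling. The share of *MYOZ2* was 50.4% in Yorkshire and 7.66% in Shaziling, whereas that of *MYOZ3* was 7.20% and 5.97%. Thus the most abundant calsarcin was *MYOZ2* in the Yorkshire library and *MYOZ1* in the Shaziling library. Relative to *MYOZ3*, *MYOZ1* was 2.45 times higher in Shaziling (2.34 to 2.57) and *MYOZ2* was 5.45 times higher in Yorkshire (5.16 to 5.76).

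**Figure D2:**
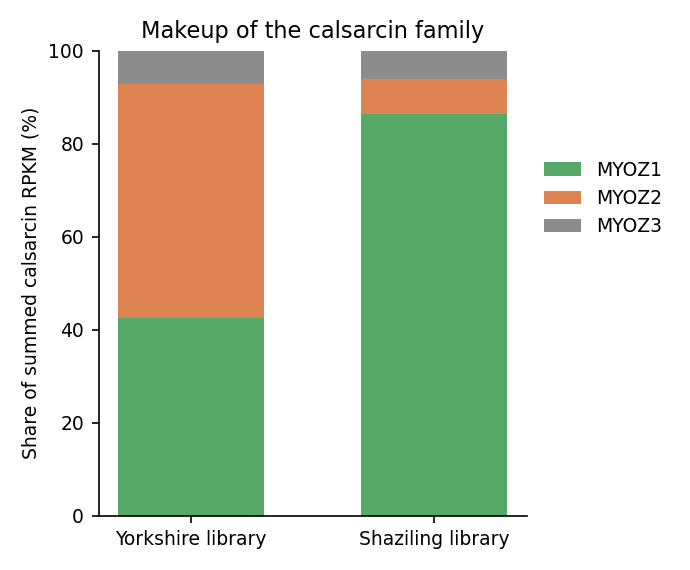
Share (%) of each calsarcin in the summed RPKM of *MYOZ1*, *MYOZ2* and *MYOZ3*, with 1 bar for each library. *MYOZ1* takes 42.4% in Yorkshire and 86.4% in Shaziling, while *MYOZ2* takes 50.4% and 7.66%.

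*FHL1* was represented by contig_410, a unigene of 7317 bp of which the coding sequence of the matched protein (296 residues) would take 12.2%. The reads on it were 60595 in Yorkshire and 104368 in Shaziling, more than on any unigene of the other 3 genes. Per length, its level was below that of both calsarcins in Yorkshire and between them in Shaziling. The ratio was 2.07 (95% confidence interval 2.05 to 2.09), just past 2, with a log2 fold change of 1.04. By RPKM, *FHL1* was at rank 84 in Yorkshire and 66 in Shaziling.

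A shorter unigene, contig_9024 (674 bp), matched another *FHL1* protein record of 323 residues, whose coding sequence of 972 bp exceeds the unigene. With 374 reads it reached 16.3 RPKM in Yorkshire, and with 910 reads 47.7 RPKM in Shaziling. This ratio of 2.92 (95% confidence interval 2.58 to 3.30) had the direction of the longer unigene. Contig_410 held 99.4% of the *FHL1* reads in Yorkshire and 99.1% in Shaziling. The division of reads between unigenes of the same gene is uncertain.

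*CSRP2* was represented by contig_16078 (951 bp), of which the coding sequence of the matched protein (193 residues) would take 61.2%. There were 73 reads in Yorkshire and 103 in Shaziling. The ratio was 1.69, and its 95% confidence interval of 1.24 to 2.32 included 2. The log2 fold change was 0.57, beside a median of 0.28 over unigenes with a mean of 1 to 10 RPKM. *CSRP2* was at rank 11285 of all unigenes in Yorkshire and 9194 in Shaziling, far below the other 3 genes. The RPKM of *FHL1* was 108 times that of *CSRP2* in Yorkshire and 132 times in Shaziling. A difference between these values was not detectable at this depth, since their ratio of 1.22 had a 95% confidence interval of 0.892 to 1.66.

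Markers of other cell types were examined because LM holds vessels, connective tissue and fat. Of the 8 smooth muscle markers and 4 immune markers, 0 were found by name. All genes named by the nr match had shares of 39.1% past the ratio of 2 in favor of Shaziling and 4.04% in favor of Yorkshire. Of the 6 fibroblast markers 4 were found, with a sum of 721 RPKM in Yorkshire and 685 in Shaziling. Of these, 0 were past the ratio of 2. Under the other scalings 1 of the 4 was past it in favor of Yorkshire, or 2 with totals without the mitochondrial unigenes. The share of all genes named by the nr match in favor of Yorkshire was then 8.61% to 17.4%. The 2 adipocyte markers found summed to 27.5 and 52.1 RPKM, and the 3 endothelial markers to 35.2 and 58.5 RPKM, and 1 of each was past the ratio in favor of Shaziling. Both blood markers found, *HBB* (beta globin) and *ALAS2* (heme synthesis in red cells), were past it in favor of Shaziling, with a sum of 18.9 RPKM in Yorkshire and 212 in Shaziling. Their part in the reads of the 4 genes was not tested.

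The order of the levels per length differed between the libraries. In Yorkshire it was *MYOZ2*, *MYOZ1*, *FHL1* and *CSRP2*, with 95% intervals of 407 to 419 RPKM for *MYOZ2*, 344 to 353 for *MYOZ1* and 242 to 246 for *FHL1*. In Shaziling it was *MYOZ1*, *FHL1*, *MYOZ2* and *CSRP2*, and no neighbours in either order had overlapping counting intervals. *FHL1* was 3.73 times *MYOZ2* in Shaziling, while *MYOZ2* was 1.69 times *FHL1* in Yorkshire. *MYOZ1* was 1.43 times *FHL1* in Yorkshire and 3.02 times in Shaziling. Of the 6 pairs among the 4 genes, *FHL1* to *CSRP2* was the one whose ratio did not differ between the libraries beyond counting error.

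Ratios between the libraries, unlike those within a library, depend on the scaling. A pair of mitochondrial unigenes took 46.4% of all Yorkshire reads and 11.8% of all Shaziling reads, and reads on them count in the total that every RPKM is divided by. Under 4 other scalings, the log2 ratio of every unigene was shifted by -0.35 to -0.72. *MYOZ1* was then between 2.66 and 3.43 times higher in Shaziling, and *MYOZ2* between 3.90 and 5.03 times higher in Yorkshire. *FHL1* was past 2 only with the RPKM values as deposited, and its ratio was 1.62, 1.53, 1.52 and 1.26 under the others. The ratio of *CSRP2* was 1.03 (95% confidence interval 0.755 to 1.41) with totals without the mitochondrial unigenes. Its interval included 1 under each of the 4 other scalings, so no direction of *CSRP2* is established. Under each of these 4 scalings, 2 of the 4 genes were past the ratio.

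**Figure D3:**
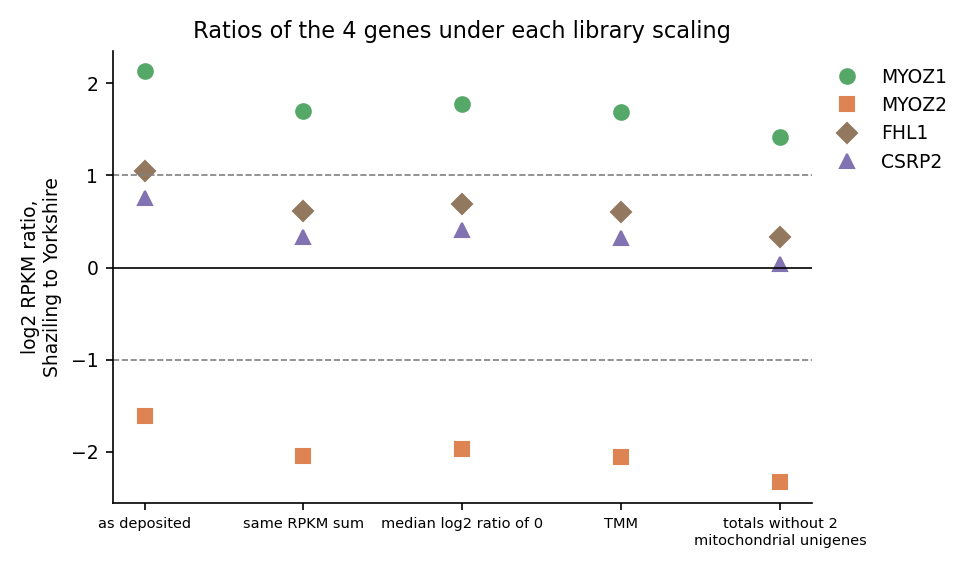
Log2 RPKM ratio of Shaziling to Yorkshire for the 4 genes with the deposited RPKM values (first column) and under 4 other scalings of the libraries. Dashed lines mark a ratio of 2 in either direction; *MYOZ1* and *MYOZ2* lie beyond them in each column, and *FHL1* in the first column only.

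The families of *FHL1* and *CSRP2* were each led by 1 gene. *FHL3*, a muscle relative of *FHL1*, reached 23.4 RPKM in Yorkshire against 86.9 in Shaziling (ratio 3.71). *FHL5*, best known from the testis, stood at 3.96 and 4.08 RPKM, and its ratio of 1.03 turned to 0.626 with totals without the mitochondrial unigenes. *FHL1* made up 89.9% of the RPKM of these 3 genes in Yorkshire and 84.7% in Shaziling. Among the CSRP genes this place was taken by *CSRP3*, the muscle LIM protein of the Z-disc, with 90.0% in Yorkshire and 89.6% in Shaziling. *CSRP3* stood at 48.2 RPKM in Yorkshire and at 174 in Shaziling. *CSRP1*, a broadly expressed relative, reached 3.10 and 16.4 RPKM, and its ratio of 5.29 (95% confidence interval 4.26 to 6.61) did not overlap in counting interval with that of *CSRP2*. The share of *CSRP2* in the CSRP sum was 4.22% in Yorkshire and 1.97% in Shaziling. Unigenes of *FHL3* and *CSRP3* were named only through the authors' list of differentially expressed genes (DEGs), so that a difference was a condition for having a name. *FHL2* was not analysed here.

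Of a list of 34 Z-disc genes, 14 were found through the nr match. Without *MYOZ1* and *MYOZ2*, 6 of 12 were past the ratio of 2 in favor of Shaziling, 0 in favor of Yorkshire and 6 in neither direction, with a median log2 fold change of 1.07. A total of 4030 genes named by the nr match reached 1 RPKM. Of these, 39.1% were past the ratio in favor of Shaziling and 4.04% in favor of Yorkshire. Under each of the 4 other scalings 5 of 12 Z-disc genes were past it in favor of Shaziling and 0 in favor of Yorkshire. The shares of all genes named by the nr match were then 20.9% to 27.2% and 8.61% to 17.4%, respectively. *TCAP* (telethonin, which caps titin at the Z-disc) stood at 78.1 RPKM in Yorkshire and at 461 in Shaziling, which gives a ratio of 5.90. *DES*, which forms the intermediate filaments around the Z-disc, stood at 737 and 1838 RPKM, a ratio of 2.49 that was below 2 under each of the 4 other scalings (1.52 at the lowest). *ACTN2*, an alpha-actinin to which calsarcins bind, had 605 and 1020 RPKM and did not reach the ratio of 2 (1.69). Relative to *ACTN2* in the same library, *MYOZ1* was 2.60 times higher in Shaziling (95% confidence interval 2.55 to 2.64), and *MYOZ2* was 5.15 times higher in Yorkshire (4.99 to 5.32).

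A further 7 Z-disc genes were named only through the DEG list, which required a fold change of 2 or more. A place past the ratio was thus a condition for having a name. Of the 7 genes, 5 were past it in favor of Shaziling and 2 in favor of Yorkshire. The latter were *MYOT* (myotilin, which binds alpha-actinin and filamin C) and a fragment of *TTN* (titin). *MYOT* (contig_46, 2455 bp) stood at 780 RPKM in Yorkshire and at 383 in Shaziling, the direction of *MYOZ2*. The ratio of *MYOZ2* to *MYOT* was 0.529 in Yorkshire and 0.353 in Shaziling, so *MYOZ2* differed more between the libraries than *MYOT* did. *FLNC* (filamin C) and *PDLIM3* are not among these 7 genes. Each also has a unigene named by the nr match and is counted with the genes found that way, while its most abundant unigene was named through the DEG list. *FLNC* had 5 unigenes with ratios from 9.22 to 30.1, all in the direction of *MYOZ1*. A fragment of *PDLIM3*, a LIM protein that binds alpha-actinin, had a ratio of 8.50, and its longer unigene (contig_314, 16312 bp) 3.33.

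Of the 36 genes of the LIM list, 12 were found through the nr match. Without *FHL1* and *CSRP2*, 5 of 10 were past the ratio in favor of Shaziling and 0 in favor of Yorkshire, with a median log2 fold change of 0.69, beside 39.1% and 4.04% of all genes named by the nr match. Most of these 5 were at a low level. *LIMS1* had 0.404 RPKM in Yorkshire and 3.56 in Shaziling (6 and 44 reads), *PDLIM4* 0.713 and 2.75, and *LIMK2* 0.986 and 2.77. *ZYX* (zyxin, a LIM protein of focal adhesions) was level in the deposited values, with 14.3 and 15.1 RPKM, and its ratio of 1.06 turned to 0.641 with totals without the mitochondrial unigenes. *LMCD1*, a LIM protein of heart and skeletal muscle whose unigene was named through the DEG list, had 12.0 RPKM in Yorkshire and 62.7 in Shaziling.

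**Figure D4:**
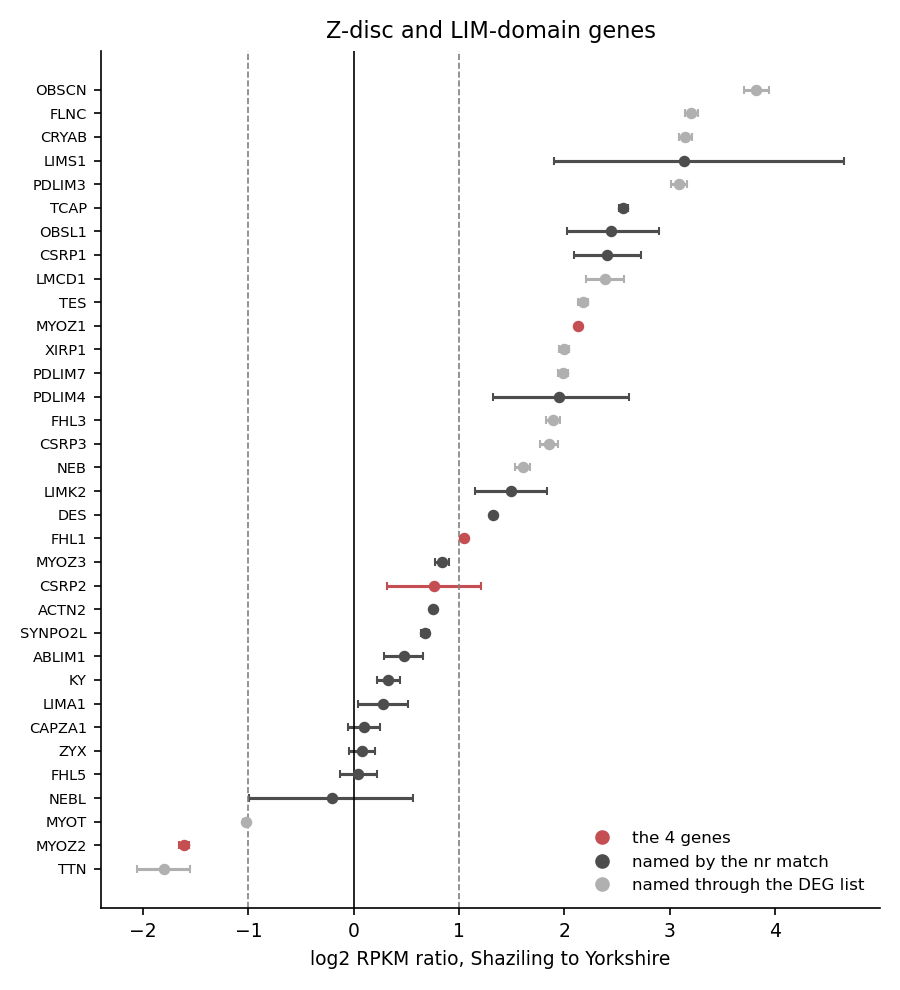
Log2 RPKM ratio of Shaziling to Yorkshire for the 34 genes of the Z-disc and LIM lists that reached 1 RPKM in either library, each by its most abundant unigene, with exact 95% intervals on the reads. Dashed lines mark a ratio of 2, and the 3 genes beyond the left line are *MYOT*, *MYOZ2* and *TTN*. Light grey points were named through the DEG list, for which a difference was a condition.

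Calcineurin was represented by its catalytic subunits. *PPP3CA* stood at 14.5 RPKM in Yorkshire and at 32.7 in Shaziling (ratio 2.26), and *PPP3CB* at 36.3 and 63.5 (ratio 1.75). *RCAN1*, a regulator that binds and inhibits calcineurin, stood at 8.44 and 12.4 RPKM, and its ratio of 1.47 turned to 0.891 with totals without the mitochondrial unigenes. Of the 19 genes of the calcineurin, NFAT and MEF2 list, 4 were found, of which 1 (*PPP3CA*) was past the ratio in favor of Shaziling and 0 in favor of Yorkshire, beside 39.1% and 4.04% of all genes named by the nr match. Under each of the 4 other scalings *PPP3CA* was below 2 (1.37 at the lowest). The counts were then 0 in favor of Shaziling and 1 in favor of Yorkshire. The latter was *NFATC2*, with only 17 reads in Yorkshire and 8 in Shaziling. Its ratio of 0.564 in the deposited values had a counting interval of 0.211 to 1.38, which included 1. The shares of all genes named by the nr match were 20.9% to 27.2% and 8.61% to 17.4% under these scalings, respectively.

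The calsarcins were set beside other genes of their fibre types. Of 15 fast fibre genes, 8 were found through the nr match, and without *MYOZ1*, 5 of 7 were past the ratio of 2 in favor of Shaziling and 0 in favor of Yorkshire, beside 39.1% and 4.04% of all genes named by the nr match. Under each of the 4 other scalings 3 of 7 were past it in favor of Shaziling and 0 in favor of Yorkshire. The shares of all genes named by the nr match were then 20.9% to 27.2% and 8.61% to 17.4%, respectively. *MYBPC2*, the fast myosin-binding protein C, had a ratio of 3.31, and *ATP2A1*, the calcium pump of fast fibres, one of 2.50 that was below 2 under each of the 4 other scalings (1.52 at the lowest). Those not past it were *MYH1* and *CASQ1*. The ratio of *MYH1* was 1.57 and turned to 0.952 with totals without the mitochondrial unigenes, and that of *CASQ1* was 1.87 (1.14 at the lowest). *MYLPF*, the regulatory light chain of fast myosin, had the ratio nearest to that of *MYOZ1* among 86 other named genes with a mean of 100 RPKM or more, 4.31 against 4.38. *MYOZ1* had 0.0930 times the RPKM of *MYLPF* in Yorkshire and 0.0945 times in Shaziling. This is a change by 1.02 whose 95% confidence interval (0.999 to 1.03) included 1. Because *MYLPF* was picked for the nearness of this same ratio, the interval is no separate check of their likeness. The next nearest to *MYOZ1* were *MYL3* (4.29) and *TES* (4.52). Of these 86 genes, 15 were represented by a unigene named through the DEG list, among them *MYLPF*, *TES*, *TNNI2* and *MYOT*, for which a difference was a condition for having that name.

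Within the same 86 abundant genes, those nearest to *MYOZ2* were *HSPB6*, a small heat shock protein, with a ratio of 0.414, *MYOT* with 0.491, and *SDHB*, a subunit of succinate dehydrogenase, with 0.559. Those nearest to *FHL1* (2.07) were *TNNI2*, the fast troponin I, with 2.13, *CCNG1* with 1.96 and *GPI*, a glycolytic enzyme, with 2.24. Nearest to *CSRP2* (1.69), which is itself far less abundant than these genes, were *ACTN2* (1.69), the ribosomal protein gene *RPL6* (1.65) and *SYNPO2L* (1.60, which turned to 0.970 without the mitochondrial unigenes in the totals). Less abundant genes were not ranked, and some lay nearer, such as the fragment of *TTN* (0.287) to *MYOZ2* and *PPP3CB* (1.75) to *CSRP2*. With 2 libraries, this likeness is that of a single ratio.

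The slow fibre genes were divided. Of 15 genes, 3 were found through the nr match, and these were *MYOZ2*, *MYL3* and *ATP2A2*. *MYL3*, the essential light chain of slow myosin, stood at 150 RPKM in Yorkshire and at 642 in Shaziling, a direction opposite to that of *MYOZ2*. *ATP2A2*, the calcium pump of slow fibres and heart, stood at 105 and 129 RPKM, and its ratio of 1.23 turned to 0.747 with totals without the mitochondrial unigenes. A further 4 were named only through the DEG list, so that a difference was a condition for having a name. Of these, *TNNI1* (slow troponin I) had 131 RPKM in Yorkshire against 446 in Shaziling, and *CSRP3* was likewise higher in Shaziling. A fragment of *MYH7* (slow myosin heavy chain, 669 bp) had 15.7 and 2.27 RPKM, and *MYBPC1* (slow myosin-binding protein C) 33.8 and 15.5 RPKM, both in the direction of *MYOZ2*. Reads of myosin heavy chain fragments can be shared among these closely related genes.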

How the data were processed

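RNA of the LM was sequenced by the authors, and the reads were assembled *de novo* with CLC Genomics Workbench and matched to the nr and UniProt databases by BlastX. The submitters' processing notes also name CASAVA 1.8, TopHat2 2.0.6 and the mouse build mm10, with no role given. Counts of reads were used as deposited, as whole numbers, and the program that counted them is not given in the sources used here. For RPKM, the deposited values come from Qualimap, which the authors ran. With a single total per library, count and length gave the RPKM of all 60705 unigenes with reads in Yorkshire and all 63294 in Shaziling within a relative tolerance of 1e-06. Unigenes of the table took 87.0% of this total in Yorkshire and 72.7% in Shaziling.

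Names came from pig RefSeq proteins (Sscrofa11.1; accessions compared without version), which gave 4484 symbols to 5698 unigenes, and for 37 further unigenes from the UniProt entries of the DEG list. The genes and lists were chosen with earlier results of these data known. Named were the 4 genes, their paralogs and partners, Z-disc and LIM genes of 10 RPKM or more, leading fibre genes and, for each of the 4 genes, the 3 of nearest log2 ratio. *ACTA1*, *HBB*, *ALAS2*, *RCAN1*, *NFATC2*, *LIMS1*, *PDLIM4* and *LIMK2* were named outside this rule. With 1 library per breed no p-value is given, and a ratio of 2 with 1 RPKM or more in either library was the threshold. The ratios and intervals were checked on simulated Poisson reads with 200 changed unigenes. These hold counting error only, so differences between animals or in library scaling were not covered by this check. Alternatives were 4 scalings (1 of them TMM, edgeR 4.0.16 in R 4.3.3), other pseudocounts, folds, RPKM and length minimums, a false discovery rate of 0.05 from an exact binomial test, and other ways to represent a gene. Python 3.11.15, numpy 2.4.6, scipy 1.17.1 and pandas 2.3.3 were used.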

Additional observations from a re-analysis of the deposited data

How the results depend on the processing

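The log2 fold changes of *MYOZ1* (1.41 to 2.13) and *MYOZ2* (-2.32 to -1.60) kept their direction and their side of the ratio of 2 under 10 of 10 alternatives. That of *CSRP2* (0.03 to 0.76) stayed between 0 and 1, but the counting interval of its ratio included 1 under each of the 4 other scalings. That of *FHL1* kept its direction and was below 1 under 4 of 10, with 0.61 at the same RPKM sum, 0.69 at a median log2 ratio of 0, 0.61 with TMM and 0.33 with totals without the mitochondrial unigenes. These scalings shift all unigenes by a fixed amount. At a fold of 1.5, 4 of the 4 genes were past the threshold, and at a fold of 3, 2 were. The shares of all unigenes past these folds are not given here. *MYOZ1*, *MYOZ2* and *CSRP2* have 1 unigene each, named by the nr match. The longest unigene, the summed unigenes and the names from the nr match alone therefore could not change their values. The same holds for the ratio of *MYOZ1* to *MYOZ2* (13.4), so these alternatives are no check on them. The number of unigenes past the ratio of 2 in favor of Shaziling was 14786, against 24400 without an RPKM minimum, 1487 with a minimum of 10, 9561 at the same RPKM sum, 8780 at a median log2 ratio of 0, 9276 with TMM and 10856 with totals without the mitochondrial unigenes. In favor of Yorkshire it was 5721, against 11162, 301, 9599 at the same RPKM sum, 7571 at a median log2 ratio of 0, 9614 with TMM and 17227 with totals without the mitochondrial unigenes. No paired analysis was possible because each breed has 1 library. The 73 and 103 reads of *CSRP2* limit the precision of its ratio.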
